A study of Mus musculus with 12 samples.

Results

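Myc and 37 genes of ribosome biogenesis were followed in mouse tumors treated with a plant fraction, with an antibody against PD-1, or with both. The 38 genes were taken by their gene symbols from a table of 23282 lines, each symbol was found once, and all 38 were among the 13464 genes with enough counts to be tested. By role they comprised Myc itself, 5 genes of polymerase I transcription, 4 of the nucleolar scaffold and its helicase, 4 of the box C/D and 4 of the box H/ACA ribonucleoproteins, 9 of the small subunit processome and 11 of large subunit assembly.

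The tumors grew from MC38, a mouse colon carcinoma cell line implanted subcutaneously in the right flank. The hosts were wild-type female C57BL/6 mice. The labels give an age of 6 weeks at implantation, while the study's methods give it as the age at purchase, before acclimation. Con mice received the vehicle (saline with DMSO and Tween) and the isotype antibody IgG2a. SFIH mice received IgG2a and a sesquiterpene lactone-rich fraction of the root of Inula helenium, at 50 mg/kg every day by intraperitoneal injection. PD mice received 200 µg of the antibody against PD-1 2 times a week, and Comb mice received both agents. Each group held 3 tumors of day 19, and the immune system of the hosts was intact. The labels call the samples tumor cells, but the RNA was isolated from whole tumor tissue, so that host cells were part of every sample. A lower level of a gene can therefore mean fewer cells of one kind or less RNA per cell, and these cannot be told apart here.

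Ribosomes are assembled in the nucleolus. Polymerase I makes one long precursor RNA there, small nucleolar ribonucleoproteins mark and modify it, the small subunit processome folds and cleaves it, and further factors mature the large subunit. Myc is a transcription factor that binds a short DNA element called the E-box, and genes of this pathway are among its best known targets in growing and transformed cells. The agents were compared with Con, alone and together, to learn what each does to the tumor transcriptome.

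The promoters of the 38 genes are shown first for the element that Myc binds. RefSeq promoter sequences (build GRCm38.p6, from 250 bases before to 50 bases after the start site) matched 31 of the 38 symbols, and Myc, Tcof1, Npm1, Fbl, Rrp12, Bop1 and Rrs1 were not matched. The E-box CACGTG, which reads the same on both strands, was present in 6 of 31 promoters (19.4%) and in 8.09% of the 27025 genes of that table. The variant CACGCG, searched on both strands as CACGCG or CGCGTG, was present in 11 of 31 (35.5%) and in 10.5% of all genes, and 15 of 31 (48.4%) held either form, against 17.2% of all genes. The 6 stretches of 30 bases that hold the E-box are given here because they show how its neighbours and its distance from the start site vary, with the E-box in capitals.

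Mybbp1a (chr11:72441347-72441376, + strand, E-box beginning at base 41 after the start): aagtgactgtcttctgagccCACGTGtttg

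Utp20 (chr10:88826765-88826794, - strand, base 38 after the start): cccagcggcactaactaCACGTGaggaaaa

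Wdr43 (chr17:71616220-71616249, + strand, base 18 after the start): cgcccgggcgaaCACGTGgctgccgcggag

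Pes1 (chr11:3963965-3963994, + strand, base 3 after the start): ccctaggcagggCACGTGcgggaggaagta

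Nop2 (chr6:125131811-125131840, + strand, base -60 from the start): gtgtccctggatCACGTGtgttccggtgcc

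Imp4 (chr1:34439696-34439725, + strand, base -121 from the start): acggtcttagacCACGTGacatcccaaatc

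In 4 of these 6 promoters the element lay within 50 bases after the start site, and in Nop2 and Imp4 it lay before it. The 250 bases before the start are printed for Nop2, which encodes an rRNA methyltransferase of the large subunit, and for Polr1c, a subunit shared by polymerases I and III, because they carry the 2 forms of the element in full context. Capitals mark the E-box in Nop2 and a pair of adjacent variant elements, one on each strand, in Polr1c.

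Nop2 (chr6:125131633-125131882, + strand): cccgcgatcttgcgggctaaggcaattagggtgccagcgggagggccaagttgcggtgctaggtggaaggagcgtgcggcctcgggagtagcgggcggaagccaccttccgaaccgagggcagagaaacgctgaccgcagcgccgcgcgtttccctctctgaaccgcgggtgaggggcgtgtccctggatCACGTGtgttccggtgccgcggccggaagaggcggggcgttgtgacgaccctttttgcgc

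Polr1c (chr17:46248046-46248295, - strand): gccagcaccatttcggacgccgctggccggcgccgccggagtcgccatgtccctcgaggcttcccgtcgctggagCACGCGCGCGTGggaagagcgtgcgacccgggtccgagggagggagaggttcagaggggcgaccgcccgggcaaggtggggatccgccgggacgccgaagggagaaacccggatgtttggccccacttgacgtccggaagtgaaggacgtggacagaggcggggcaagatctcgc

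Both windows were rich in G and C, at 67.6% for Nop2 and 70.4% for Polr1c. A match is a description of letters and not a measured binding site, and nothing was measured here on binding.

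One tumor stood apart before any comparison. Total counts ranged from 7870741 to 12261032 per tumor, and 0.231% of the counts of Comb replicate 3 fell on the 38 genes, against 1.11% to 1.39% in the other 11 tumors. In Comb replicate 3 the TMM-scaled levels, as CPM (counts scaled to a common library size), summed to 466 CPM for 16 proliferation genes, against 3147 to 4217 CPM in the other 11 tumors. The 17 immune cell markers summed to 14925 CPM there (573 to 3987 CPM elsewhere), the 20 skeletal muscle markers to 9409 CPM (25.4 to 1072 CPM elsewhere) and the 11 fibroblast and endothelial markers to 22932 CPM (1113 to 11917 CPM elsewhere). The 7 adipocyte markers summed to 1288 CPM there (33.3 to 459.8 CPM elsewhere), the 7 skin markers to 463 CPM (3.9 to 28.4 CPM elsewhere) and the 5 erythroid genes to 2429 CPM (65.1 to 1533 CPM elsewhere). The 10 markers of colon epithelium summed to 4.7 to 25.2 CPM in 11 tumors and 116 CPM in Comb replicate 3, with 2 to 5 of the 10 at 0 counts in each tumor, so that these libraries show little of the tissue that the line came from. The part of the other cells in the results below was not tested, and each result that rests on Comb is given with and without its replicate 3.

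**Figure D1:**
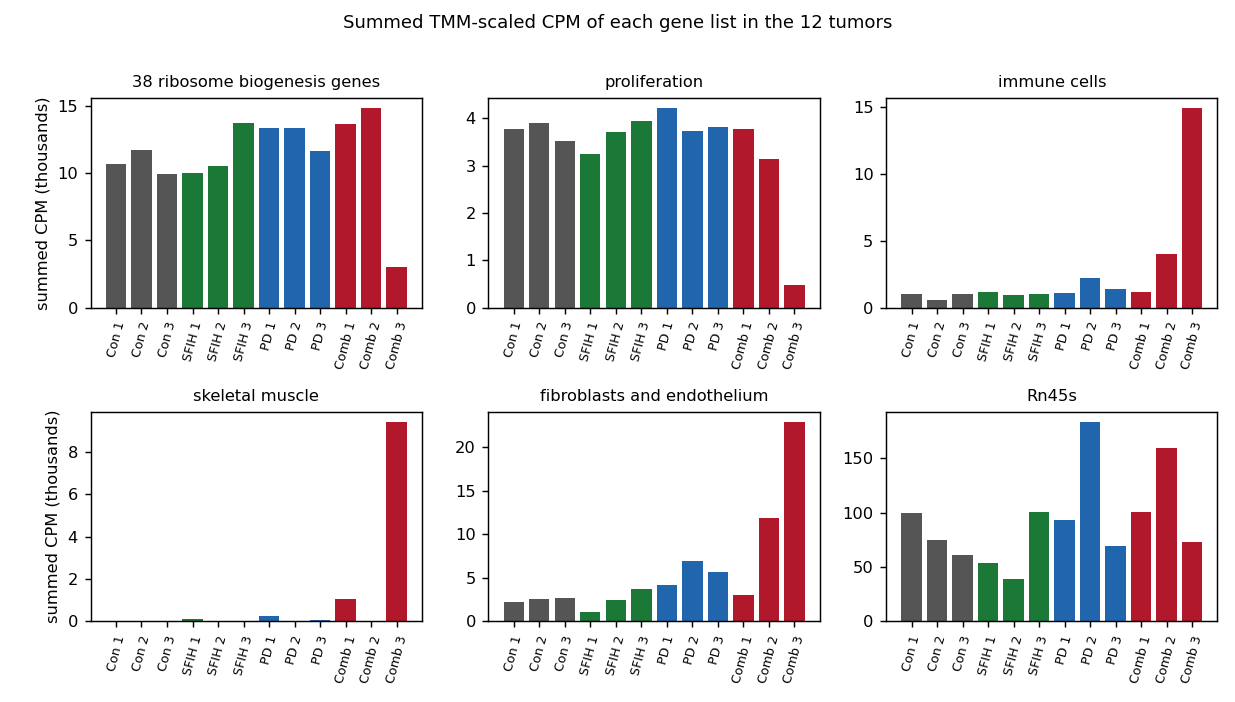
Summed TMM-scaled CPM (linear axes from 0, in units of 1000 CPM) of the 38 genes, of 4 marker lists and of Rn45s in each of the 12 tumors; bars are single tumors, colored by group. In Comb replicate 3 the 38 genes and the proliferation genes lie below all other tumors, while the immune, muscle and fibroblast lists lie above all others.

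In Con the 38 genes covered a wide range of levels. The libraries were made from the 3′ ends of transcripts, so that by design a count does not grow with transcript length. The highest were Ncl (nucleolin, which binds the precursor RNA) at 2910 ± 232 CPM (SD, n = 3), Npm1 (nucleophosmin, a scaffold of the granular part of the nucleolus) at 1959 ± 256 CPM and Ddx21 (an RNA helicase) at 664 ± 43.8 CPM. Ncl was the 8th and Npm1 the 24th most abundant of the 13464 genes tested in Con. The lowest were Rrp9 (a protein of the U3 ribonucleoprotein) at 26.1 ± 0.81 CPM, Polr1b (the second largest polymerase I subunit) at 17.2 ± 1.92 CPM and Myc at 16.8 ± 9.80 CPM. Polr1b and Myc did not differ beyond their spread.

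Myc also varied most among the 38 genes. The 3 Con tumors stood at 7.27, 26.9 and 16.4 CPM, and those of SFIH at 24.0, 15.7 and 14.99 CPM. The PD tumors followed at 21.3, 11.6 and 9.29 CPM, and the Comb tumors at 18.1, 15.2 and 3.12 CPM. The Con tumors held both the lowest and the highest of 11 tumors, and Comb replicate 3, with 26 counts, lay below them. Over the 11 other tumors the coefficient of variation was 36.3% for Myc, 27.3% for Gar1 (a box H/ACA protein) and 24.3% for Ncl. The other 35 genes ranged from 8.09% for Imp4 to 21.4% for Gnl3. The median over the 38 genes was 15.7%, beside 16.1% for the 7414 tested genes in the same range of levels.

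**Figure D2:**
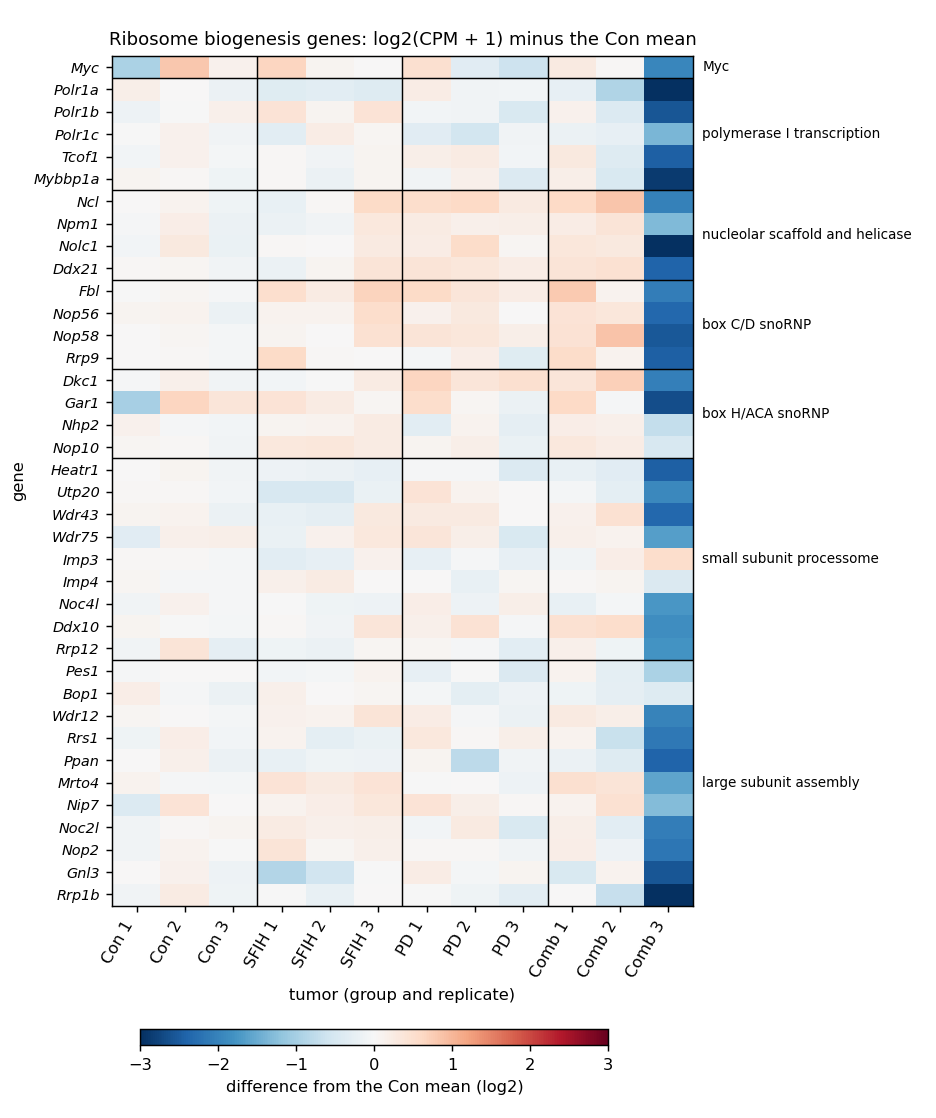
Level of each of the 38 genes, log2(CPM + 1) with TMM scaling, minus its mean over the 3 Con tumors; rows are genes grouped by role, columns are the 12 tumors, and the color scale is limited to 3 log2 units in either direction. The last column, Comb replicate 3, is blue for all genes except Imp3, and the other columns are pale.

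In Comb replicate 3, 37 of the 38 genes lay below all 11 other tumors, where 38.6% of all genes tested did so. Its level was at the median 20.8% of that gene's median in the other 11 tumors. Polr1a, the largest subunit of polymerase I, stood at 3.60 CPM (30 counts) against 37.1 to 82.0 CPM in the others, which is 5.83% of their median. Rrp1b, a large subunit factor, stood at 6.48% of that median and Nolc1, a nucleolar chaperone of small nucleolar ribonucleoproteins, at 9.60%.

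The lower levels were uneven within complexes. Of the box H/ACA proteins, Gar1 stood at 12.8% and Dkc1, the pseudouridine synthase, at 19.9% of the median of the other tumors, but Nop10 at 63.0% and Nhp2 at 56.9%. Of the PeBoW complex of large subunit assembly, Wdr12 stood at 22.1%, Pes1 at 52.5% and Bop1 at 79.2%. Imp3, which with Imp4 brings the U3 RNA to the precursor, was the only one of the 38 above all other tumors, at 159 CPM against 87.8 to 125 CPM, where 34.1% of all genes tested lay above. Without TMM scaling the same counts of 37 below and 1 above were found, beside 47.2% of all genes below and 24.4% above. Imp4 stood at 63.0 CPM in Comb replicate 3 and at 73.8 to 102 CPM elsewhere. The 6 genes with an E-box stood at a median of 23.6% and the other 25 with a promoter sequence at 19.9%, and the 15 with either form of the element at 25.9% and the other 16 at 18.5%, which is given as a description of this 1 tumor. Across the 38 genes the remaining level had a Spearman correlation of -0.36 with the length of the longest annotated transcript, beside -0.22 across 7089 tested genes in the same range of levels, all from this 1 library. The 19 genes with the shorter transcripts stood at a median of 21.4% and the 19 with the longer at 19.0%. The longest annotated transcript need not be the one expressed.

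Most genes of the same pathway outside the 38 were also lowest in that tumor. Of those tested, 12 of 18 of the polymerase I machinery, 35 of 42 small subunit factors, 41 of 44 large subunit factors and 29 of 29 Myc targets outside the nucleolus lay below all other tumors, beside the 38.6% of all genes. Polr2l, Taf1b, Znrd1, Krr1, Utp23, Gltscr2 and Nsa2 of these lists lay above all others. The 18 other genes of the polymerase I machinery summed to 1238 CPM in Comb replicate 3 and to 2049 to 2542 CPM elsewhere, the 42 other small subunit factors to 1931 CPM against 3494 to 4076 CPM, and the 44 other large subunit factors to 2078 CPM against 4545 to 5479 CPM. The 30 Myc targets outside the nucleolus summed to 3194 CPM against 6755 to 8369 CPM. The 13 genes of the Myc network, the partners and rivals of Myc such as Max and the Mxd proteins, stood higher at 722 CPM, against 502 to 580 CPM, but without TMM scaling they stood at 548 CPM, within the 459 to 651 CPM of the others. Of the 10 that were tested, 1 lay below all other tumors with TMM scaling. Another 5 lay above (Max, Mlxip, Mxd1, Mxd3 and Mxd4), where 34.1% of all genes did. Rn45s, the record of the ribosomal precursor, also spans the mature ribosomal RNAs, so that its counts cannot be assigned to the precursor. It made up 10.3%, 7.80% and 6.84% of all counts under Con and 6.00%, 4.28% and 9.90% under SFIH. Its share was 9.43%, 17.1% and 7.26% in the PD tumors and 10.2%, 14.1% and 5.56% in the Comb tumors. Rn45s thus overlapped between all groups, and in Comb replicate 3 it was within the range of the others.

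SFIH against Con asks what the fraction does alone. None of the 38 genes passed an adjusted p of 0.05 in edgeR's quasi-likelihood test (Benjamini-Hochberg), where 0% of all genes did. None had an unadjusted p under 0.05, against 2.25% of all genes, and DESeq2 called none of them and 0.0297% of all genes. Of the 38, 25 had a higher mean in SFIH, and the median log2 fold change was 0.08, beside 0.02 over all genes. The box C/D proteins were the highest group, with 4 of 4 higher and a median of 0.25, and the small subunit processome the lowest, with 3 of 9 higher and a median of -0.10. Beside these, 17 of 19 skeletal muscle markers (median 0.93) and 9 of 16 immune cell markers (median 0.26) had the higher mean in SFIH, and their part in the values of the 38 genes was not tested. The summed muscle level stood at 88.9, 33.6 and 38.7 CPM in SFIH and at 25.4 to 34.9 CPM in Con, so that SFIH replicate 1 set it.

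Fbl, the methyltransferase of the box C/D particle, stood at 84.0, 88.1 and 82.5 CPM in Con and at 120.2, 100.5 and 135 CPM in SFIH. Every SFIH tumor lay above every Con tumor, with a log2 difference of 0.48 ± 0.50 (SE, edgeR, adjusted p = 0.9998). Nop10, the smallest box H/ACA protein, stood at 220.1, 215 and 195 CPM in Con and at 261, 265 and 249.9 CPM in SFIH, without overlap (log2 difference 0.30 ± 0.21). Utp20, a large scaffold of the small subunit processome, stood at 65.4, 66.3 and 61.0 CPM in Con and lower at 45.6, 45.6 and 55.9 CPM in SFIH (-0.39 ± 0.37). These were the 3 genes of smallest p, and for each the interval of the difference included 0. Myc (0.12 ± 0.60), Ncl (0.16 ± 0.52) and Npm1 (0.01 ± 0.35) overlapped between the groups.

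Groups without overlap were found for 9 of the 38 genes. Fbl, Nop56, Nop10, Wdr12, Mrto4 and Noc2l lay above Con in all 3 SFIH tumors, where 8.55% of all genes did, and Polr1a, Heatr1 and Utp20 lay below in all 3, where 8.86% did. For a single gene the exact two-sided permutation test of 3 against 3 tumors cannot give a p below 0.1, and it gave 0.1 for Fbl, Nop10 and Utp20. Comb replicate 3 is in neither group, but it widened the shared estimate of the spread: the common dispersion was 0.158 with it and 0.0682 without it. Without it, Fbl (unadjusted p = 0.0194), Nop10 (0.0305), Utp20 (0.0204) and Mrto4 (0.00639), a factor of the stalk of the large subunit, had an unadjusted p under 0.05 in edgeR, against 7.49% of all genes, and the smallest adjusted p among the 38 was 0.487. DESeq2 without that tumor called none of the 38 and 0.411% of all genes.

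PD against Con asks what the antibody does alone. None of the 38 genes passed the adjusted threshold in edgeR (0% of all genes did), none had an unadjusted p under 0.05 (3.99% of all genes), and DESeq2 called none of them and 0.0446% of all genes. The median log2 fold change was 0.01, the same as over all genes, and 21 of 38 had the higher mean in PD. This median turned to -0.08 without TMM scaling, when the median of all genes was -0.08 as well. The 4 scaffold and helicase genes were all higher, at a median of 0.30, while polymerase I transcription had a median of -0.11 with 2 of 5 higher. In the same tumors 10 of 11 fibroblast and endothelial markers (median 0.42) and 14 of 16 immune cell markers (median 1.03) had the higher mean in PD, none called, and their part was not tested. The fibroblast and endothelial markers summed to 4192, 6937 and 5696 CPM in PD and to 2233, 2543 and 2736 CPM in Con, without overlap. For skeletal muscle, 18 of 19 markers were higher (median 2.67), but the sum was 252 CPM in PD replicate 1 and 30.1 and 44.9 CPM in the other 2, near the 25.4 to 34.9 CPM of Con.

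Ncl stood at 2934, 3129 and 2667 CPM in Con and at 4166, 4398 and 3512 CPM in PD. Every PD tumor lay above every Con tumor, with a log2 difference of 0.47 ± 0.53 (edgeR, adjusted p = 0.9998). Dkc1 stood at 228, 259.7 and 217 CPM in Con and at 366, 299.9 and 326 CPM in PD, again without overlap (0.49 ± 0.49). Npm1 stood at 1914, 2236 and 1729 CPM in Con and at 2307, 2180 and 2215 CPM in PD (0.19 ± 0.35), and Myc differed by -0.26 ± 0.60, both with overlap. Polr1c stood at 116, 128 and 108 CPM in Con and at 91.6, 80.2 and 109 CPM in PD (-0.32 ± 0.29), so that 2 of 3 PD tumors lay below Con. Bop1, a scaffold of large subunit assembly, differed by -0.18 ± 0.17.

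Ncl, Ddx21, Fbl, Nop58 and Dkc1 lay above Con in all 3 PD tumors, where 9.42% of all genes did. Fbl differed by 0.40 ± 0.50 between PD and Con. None of the 38 lay below Con in all 3, where 9.36% of all genes did. Without Comb replicate 3, Ncl (unadjusted p = 0.0288), Ddx21 (0.0415), Fbl (0.0423) and Dkc1 (0.00492) had an unadjusted p under 0.05 in edgeR, against 10.7% of all genes, and the smallest adjusted p was 0.373. DESeq2 without that tumor called none of the 38 and 0.499% of all genes. The SFIH, PD and Comb comparisons with Con share the same 3 Con tumors.

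**Figure D3:**
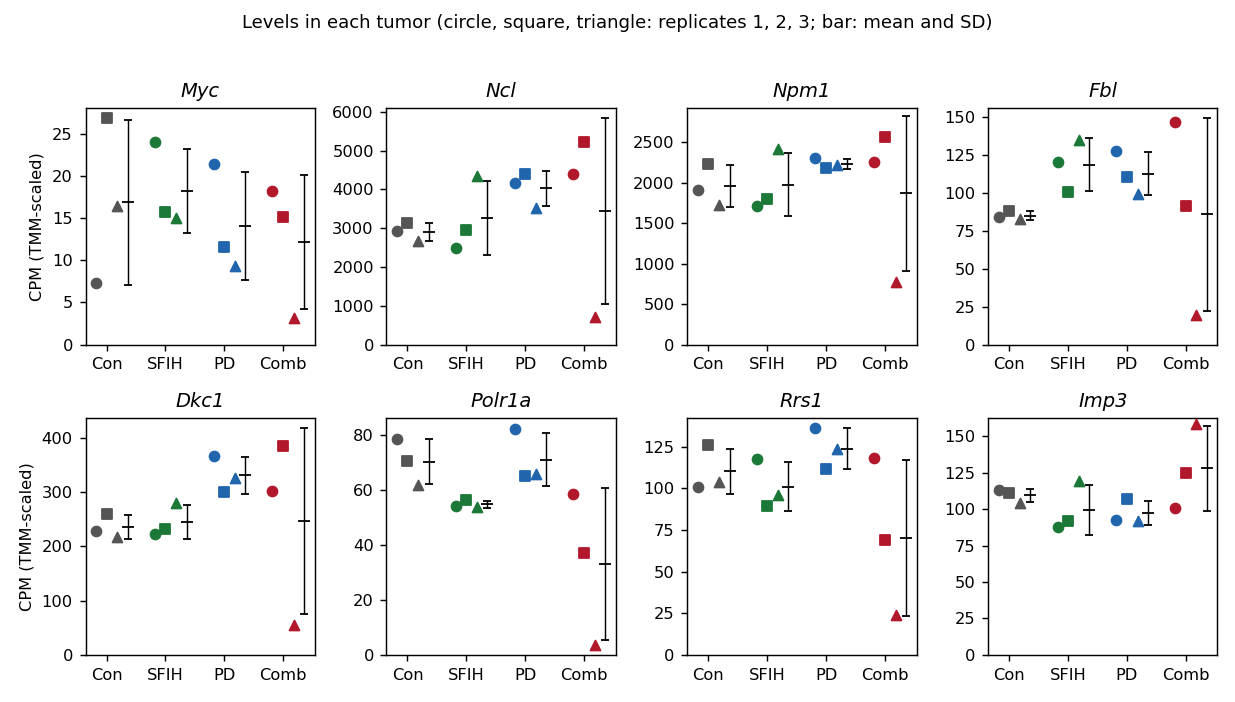
TMM-scaled CPM of 8 genes in each tumor (linear axes from 0); symbols are replicates 1, 2 and 3 of each group, and the bar at the right of each group is the mean and SD of its 3 tumors. Comb replicate 3 (triangle) is the lowest tumor for 7 of the 8 genes and the highest for Imp3, and Ncl and Dkc1 in the PD tumors lie above Con.

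Comb against Con asks what both agents do together. In edgeR none of the 38 passed the adjusted threshold, where 0% of all genes did, none had an unadjusted p under 0.05, where 25.3% of all genes did, and DESeq2 called none of the 38 and 14.8% of all genes. The median log2 fold change was -0.27, beside -0.03 over all genes, with 8 of 38 higher in Comb. This median rested on Comb replicate 3: without it the median was 0.05, beside -0.01 over all genes, with 21 of 38 higher. Without TMM scaling the 12 tumors gave -0.49 for the 38 and -0.29 for all genes, so that the distance between them changed from -0.24 to -0.20.

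Polr1a stood at 78.4, 70.4 and 61.8 CPM in Con and at 58.3, 37.1 and 3.60 CPM in Comb. All 3 Comb tumors lay below Con, with a log2 difference of -1.09 ± 0.63 (edgeR, adjusted p = 0.290), and without replicate 3 it was -0.56 ± 0.20 (adjusted p = 0.173). Polr1c stood at 103, 99.3 and 44.3 CPM in Comb, below Con in every tumor (-0.51 ± 0.29, adjusted p = 0.282, and -0.21 ± 0.18 without replicate 3). Heatr1, a long repeat protein of the small subunit processome that is also needed for polymerase I transcription, stood at 76.8, 80.7 and 70.9 CPM in Con and at 65.5, 59.9 and 13.1 CPM in Comb (-0.72 ± 0.43, adjusted p = 0.302, and -0.28 ± 0.15 without replicate 3). These were the 3 genes of smallest p.

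Of the genes named in every comparison, Ncl stood at 4407 and 5212 CPM in Comb replicates 1 and 2, above every Con tumor, and at 712 CPM in replicate 3. Its log2 difference from Con was 0.24 ± 0.52 with all tumors, 0.72 ± 0.21 without replicate 3 and 0.05 without TMM scaling. Npm1 stood at 2263, 2564 and 779 CPM (-0.07 ± 0.35, and 0.30 ± 0.17 without replicate 3). Fbl stood at 146, 91.5 and 19.2 CPM (0.01 ± 0.50, and 0.49 ± 0.20 without replicate 3), and its near-zero difference over all tumors turned to -0.15 without TMM scaling. Myc differed by -0.47 ± 0.61 and by -0.01 ± 0.47 without replicate 3.

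Polr1a, Polr1c, Heatr1 and Ppan, a factor of large subunit assembly, lay below Con in all 3 Comb tumors, where 13% of all genes did. None lay above Con in all 3, where 11.7% of all genes did. In Comb replicates 1 and 2 alone, 15 of the 38 lay above all Con tumors, against 16.2% of all genes, and the same 4 lay below, against 16.7%. Those 15 were Ncl, Npm1, Nolc1 and Ddx21 of the scaffold, all 4 box C/D proteins (Fbl, Nop56, Nop58 and Rrp9), Dkc1, Nhp2 and Nop10 of the box H/ACA proteins, Wdr43 and Ddx10 of the small subunit and Wdr12 and Mrto4 of the large subunit. By role, without replicate 3, the scaffold and helicase, the box C/D and the box H/ACA proteins each had 4 of 4 higher. Their median log2 differences were 0.36, 0.43 and 0.22. The median was -0.12 for polymerase I transcription, with none of 5 higher.

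Without Comb replicate 3 edgeR called none of the 38 and 0.0367% of all genes, and the smallest adjusted p was 0.101 for Nop58, a core protein of the box C/D particle. Its unadjusted p was under 0.05 for 9 of the 38, where 18.8% of all genes passed that mark. DESeq2 without that tumor called 4 of the 38, Nop58 (adjusted p = 0.0101), Mrto4 (0.0146), Ncl (0.0235) and Dkc1 (0.0279), where it called 5.43% of all genes, and these 4 were higher in Comb. That tumor was set apart in part by its low levels of the 38 genes, so these calls are not independent of leaving it out. Nop58 stood at 639.7, 659 and 604 CPM in Con and at 855, 1156 and 108 CPM in Comb. Leaving out Comb replicate 1 in place of replicate 3 brought 1 gene past the threshold in edgeR, in the other direction: Rrs1, a large subunit factor, at -1.24 (adjusted p = 0.0303), where that fit called 28.5% of all genes. Rrs1 stood at 101, 126 and 104 CPM in Con and at 118, 68.9 and 23.9 CPM in Comb, so that replicate 1 was within the range of Con.

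**Figure D4:**
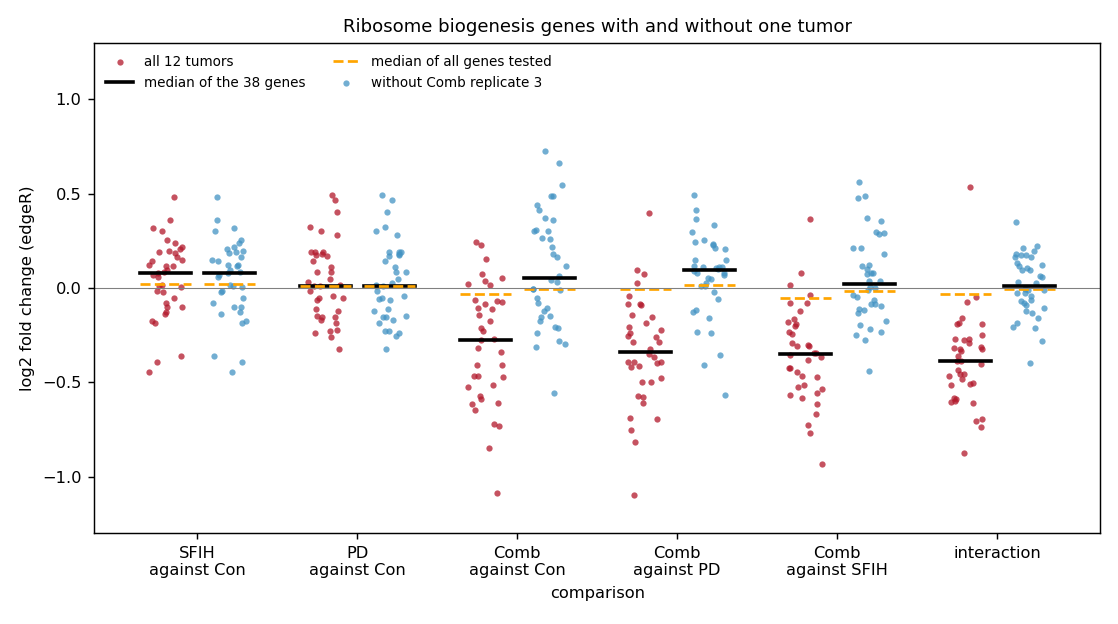
Log2 fold change (edgeR) of the 38 genes in the 5 comparisons and the interaction, with all 12 tumors and without Comb replicate 3; points are genes, black lines their medians and dashed lines the medians of all genes tested. With all tumors the median of the 38 genes lies below that of all genes in each contrast that holds Comb, and without Comb replicate 3 the medians lie between 0.01 and 0.10.

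Comb against PD asks what the fraction adds to the antibody. None of the 38 passed the adjusted threshold (0% of all genes), none had an unadjusted p under 0.05 (18% of all genes), and DESeq2 called none of them and 3.08% of all genes. The median log2 fold change was -0.34, beside 0.00 over all genes, with 4 of 38 higher in Comb, and without Comb replicate 3 it was 0.10, beside 0.02, with 28 of 38 higher. Against PD the sums of the immune cell markers overlapped, at 1188, 3987 and 14925 CPM in Comb and 1066, 2226 and 1371 CPM in PD, and their part was not tested. Imp3 stood at 92.8, 107 and 92.2 CPM in PD and at 101, 125 and 159 CPM in Comb, so that 2 Comb tumors lay above PD (0.40 ± 0.20, edgeR adjusted p = 0.299, 0.21 ± 0.16 without replicate 3 and 0.20 without TMM scaling). Utp20 stood at 85.4, 68.6 and 64.2 CPM in PD and at 61.7, 51.8 and 15.98 CPM in Comb (-0.75 ± 0.37, adjusted p = 0.301, and -0.36 ± 0.16 without replicate 3). Rrs1 differed by -0.82 ± 0.41 and by -0.41 ± 0.22 without replicate 3, and without Comb replicate 1 it was called at -1.40 (adjusted p = 0.0344), where that fit called 15.2% of all genes.

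Myc (-0.21 ± 0.61), Ncl (-0.23 ± 0.52), Npm1 (-0.26 ± 0.35) and Fbl (-0.39 ± 0.50) were lower on average in Comb than in PD. Without replicate 3 each of these 4 differences was above 0, at 0.24, 0.26, 0.11 and 0.08. Polr1a and Utp20 lay below PD in all 3 Comb tumors, where 8.1% of all genes did, and none lay above, where 6.16% did. With replicates 1 and 2 alone, Ncl, Nop56, Nop58, Nhp2, Nop10, Ddx10 and Mrto4 lay above PD, where 9.44% of all genes did, and Polr1a and Utp20 below, where 10.6% did. Without replicate 3, Polr1a, Nhp2 and Mrto4 had an unadjusted p under 0.05, against 9.02% of all genes. DESeq2 then called 1 of the 38, Mrto4 (0.49 ± 0.12 in edgeR, DESeq2 adjusted p = 0.0465), and 0.169% of all genes, while edgeR called 0% of all genes. Leaving out replicate 3 was prompted in part by the 38 genes, so this call is not independent of that choice.

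Comb against SFIH asks what the antibody adds to the fraction. None of the 38 passed the adjusted threshold (0% of all genes), none had an unadjusted p under 0.05 (19% of all genes), and DESeq2 called none of them and 8.59% of all genes. The median was -0.35, beside -0.05 over all genes, with 3 of 38 higher, and without Comb replicate 3 it was 0.02, beside -0.02, with 20 of 38 higher. The immune cell markers summed to 1188, 3987 and 14925 CPM in Comb and to 1140, 969.5 and 1028 CPM in SFIH, without overlap, and their part was not tested. Bop1 stood at 42.7, 38.1 and 39.8 CPM in SFIH and at 34.9, 31.4 and 28.7 CPM in Comb (-0.34 ± 0.17, edgeR adjusted p = 0.290). It was the only one of the 38 below SFIH in all 3 Comb tumors, where 8.56% of all genes were, and this difference was -0.28 ± 0.16 without replicate 3 and -0.60 without TMM scaling. None lay above in all 3, where 7.65% of all genes did.

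Imp3 differed between Comb and SFIH by 0.36 ± 0.20, by 0.18 ± 0.16 without replicate 3 and by 0.07 without TMM scaling. Polr1c differed by -0.52 ± 0.29 and by -0.22 ± 0.18 without replicate 3. The differences of Myc (-0.58 ± 0.61), Npm1 (-0.08 ± 0.35) and Fbl (-0.47 ± 0.50) rested on that tumor, since without it they were -0.13 ± 0.47, 0.29 ± 0.17 and 0.01 ± 0.20. Ncl differed by 0.08 ± 0.52, by 0.56 ± 0.21 without replicate 3 and by -0.10 without TMM scaling. With Comb replicates 1 and 2 alone, Ncl, Nolc1, Dkc1 and Ddx10, an RNA helicase of the small subunit, lay above SFIH, where 10.7% of all genes did, and Bop1 below, where 12% did. Without replicate 3, Ncl, Nop58, Dkc1 and Ddx10 had an unadjusted p under 0.05 in edgeR, against 10.8% of all genes, the smallest adjusted p was 0.345, and DESeq2 called none of the 38 and 0.705% of all genes.

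The interaction asks whether the effect of the fraction differed with and without the antibody. None of the 38 passed the threshold (0% of all genes), none had an unadjusted p under 0.05 (2.55% of all genes), and DESeq2 called none of the 38 and 0.00743% of all genes. The median was -0.39, beside -0.03 over all genes, with 1 of 38 above 0, and without Comb replicate 3 it was 0.01, beside -0.01, with 19 of 38 above 0. The 3 genes of smallest p were Imp3 (0.53 ± 0.28), Fbl (-0.87 ± 0.70) and Rrs1 (-0.69 ± 0.58), each with an edgeR adjusted p of 0.894. Without Comb replicate 3 these were 0.35 ± 0.21, -0.40 ± 0.27 and -0.28 ± 0.29. Myc (-0.33 ± 0.85), Ncl (-0.39 ± 0.74) and Npm1 (-0.27 ± 0.50) were smaller than their errors, and without that tumor they were 0.12 ± 0.64, 0.09 ± 0.28 and 0.10 ± 0.22. Without replicate 3 none of the 38 had an unadjusted p under 0.05 (1.55% of all genes), and neither edgeR nor DESeq2 called any gene (0%).

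In Comb against Con, 7 of the 42 other small subunit factors, 6 of the 44 other large subunit factors and none of the 29 Myc targets outside the nucleolus that were tested had the higher mean in Comb, with medians of -0.34, -0.26 and -0.38, where 48.0% of all genes had the higher mean. None was called by edgeR, which called 0% of all genes there. The 18 other genes of the polymerase I machinery were divided evenly, with 9 higher and a median of -0.05. Without Comb replicate 3 these 4 counts were 19, 29, 11 and 11, with medians of -0.03, 0.08, -0.10 and 0.07, where 49.2% of all genes were higher. The 16 proliferation genes had a median of -0.53 and 1 was higher, and without replicate 3 the median was -0.03 and 6 were higher. The immune cell markers went the other way, with 14 of 16 higher, a median of 2.76 and, without replicate 3, a median of 1.51, and none passed the adjusted threshold in edgeR with all tumors. Of the 11 fibroblast and endothelial markers, 8 had the higher mean in Comb and 3 the lower. They summed to 3021, 11917 and 22932 CPM in Comb, above the 2233 to 2736 CPM of Con without overlap. The adipocyte markers summed to 44.3, 459.8 and 1288 CPM, against 33.3 to 56.3 CPM. Comb replicate 2, which remains in the values without replicate 3, thus also had high sums, with 3987 CPM for the immune markers against 573 to 1003 CPM in Con, and the part of these cells was not tested. The 19 skeletal muscle markers tested were all higher, at a median of 7.35 and, without replicate 3, of 4.68, which rested on Comb replicate 1, where they summed to 1072 CPM, against 30.8 CPM in Comb replicate 2.

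Myc and the other genes were compared within the libraries as a description. Over all 12 tumors the median Pearson correlation of the other 37 genes with Myc was 0.75, and over the 11 tumors without Comb replicate 3 it was 0.22. The mean correlation over all pairs of the 38 was 0.76 with 12 tumors and 0.14 with 11, beside 0.00 for all genes tested in both cases. Each pair of values comes from the same library, so that depth and scaling are shared. Gar1 was the gene most like Myc over the 11 tumors (r = 0.90, Spearman 0.93), followed by Nip7 (0.67) and Nop2 (0.65). Gar1 stood at 59.9, 191 and 155 CPM in Con, with its lowest and highest values in the same tumors as Myc, and without the Con replicates 1 and 2, the 2 tumors farthest from the median of Myc, r was 0.83 over 9 tumors. Of 13463 other genes tested, 8 had an r with Myc at least as high, Gar1 included.

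Ratios of 2 genes within a tumor do not depend on scaling. Of 8 ratios computed, Ncl to Npm1, Gnl3 to Npm1, Gnl3 to Nop2 and Nop58 to Fbl are described in each group. All were chosen after the values were seen and are given without a test. The ratio of Ncl to Npm1 counts was 1.53, 1.40 and 1.54 in Con and 1.45, 1.65 and 1.79 in SFIH. It was 1.81, 2.02 and 1.59 in the PD tumors and 1.95, 2.03 and 0.914 in the Comb tumors, so that all PD tumors lay above Con and the Comb tumors fell on both sides. The ratio of Gnl3, which encodes nucleostemin, to Npm1 was 0.172, 0.158 and 0.169 in Con and 0.102, 0.120 and 0.133 in SFIH. The same ratio was 0.164, 0.142 and 0.155 in the PD tumors and 0.105, 0.136 and 0.0693 in the Comb tumors. By this ratio all 6 tumors that received the fraction lay below all 6 that did not. This separation did not hold for Gnl3 alone, and against Nop2 it held for 11 of the 12 tumors. The share of other gene pairs that separate these tumors in the same way was not computed. Gnl3 itself stood at 329, 352 and 293 CPM in Con, at 175, 217 and 322 CPM in SFIH, at 379, 309.8 and 344 CPM among the PD tumors and at 237, 348 and 53.9 CPM among the Comb tumors, so that the groups overlapped. The ratio of Gnl3 to Nop2 was 2.42 to 2.89 in Con and 2.50 to 3.04 in PD. It was lower in SFIH, at 1.0997, 1.70 and 2.39, and in Comb replicates 1 and 3, at 1.69 and 2.03, while Comb replicate 2 stood above all others at 3.17. The ratio of Nop58 to Fbl was 7.32 to 7.61 in Con, 5.55 to 6.44 in SFIH and 6.49 to 7.27 in PD, and it was 5.85, 12.6 and 5.62 in Comb.

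**Figure D5:**
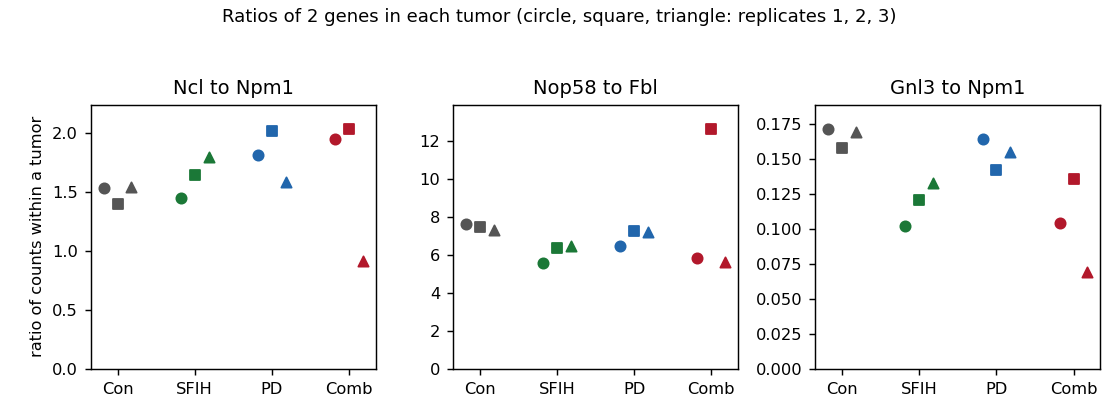
Ratio of the raw counts of 2 genes within each tumor (linear axes from 0) for Ncl to Npm1, Nop58 to Fbl and Gnl3 to Npm1; symbols are replicates 1, 2 and 3 of each group. Gnl3 to Npm1 lies at 0.136 or below in the 6 SFIH and Comb tumors and at 0.142 or above in the 6 Con and PD tumors.

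For 8 of the 38 genes (Mybbp1a, Fbl, Nop56, Dkc1, Nhp2, Heatr1, Bop1 and Noc2l) another coding gene lies in the window from 500 bases before to 300 bases after the annotated 3′ end, on the opposite strand for all but Fbl. Whether the counting used the strand is not given in the sources used here, so that counts of those with a neighbour on the opposite strand may hold its reads. For Fbl, with its neighbour on the same strand, the counts may hold such reads under either strand setting.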

How the data were processed

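RNA was isolated from tumor tissue, and 3′ end libraries (QuantSeq) were sequenced. The authors deposited whole-number counts per gene symbol for 12 tumors, 3 per group. The aligner, counter, genome build, annotation and strand setting are not given in the sources used here. The labels number the tumors without saying that each came from a separate mouse, so that p-values measure the spread between these samples. No 2 libraries of a group agreed within sampling noise. The 38 genes and all lists were chosen with earlier results of these data known.

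Counts were filtered with filterByExpr, scaled by TMM and tested in edgeR 4.0.16 (R 4.3.3) by the quasi-likelihood test over all 12 tumors, with 1 coefficient per group, no covariate and Benjamini-Hochberg adjustment over 13464 genes at a threshold of 0.05. CPM are counts divided by the TMM-scaled library size, on the usual CPM scale. Intervals are 95% intervals of the log2 fold change. DESeq2 1.42.0, no TMM, other filters, the compared groups alone, a replicate block and each tumor left out were alternatives. The fits of SFIH and PD against Con without Comb replicate 3 were added after seeing the data. The scripts were tested on simulated counts with known changes.

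Named genes were Myc, Ncl, Npm1 and Fbl in every comparison, and the 3 of smallest p. Genes named for groups that did not overlap, for their ratio, or beside a small count were chosen after their values were seen. Promoters came from RefSeq (GRCm38.p6), and 3′ neighbours and transcript lengths from GENCODE vM21.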

Additional observations from a re-analysis of the deposited data

How the results depend on the processing

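All 38 genes passed the filter, but in Comb replicate 3 Polr1a, Myc and Polr1b rest on 30, 26 and 17 counts. Other limits are 3 tumors per group, 1 tumor that stood apart, and mixed tissue. No alternative that left out no tumor of the compared groups (DESeq2, no TMM, upper-quartile scaling, Rn45s left out, no filter, at least 50 counts on average, replicate block, and the compared groups fitted alone) brought any of the 38 genes past the threshold. The replicate numbers gave no clear sign of pairing: 6 of 18 same-numbered pairs had a correlation of deviations above 0.1 (range -0.29 to 0.41). Pairs of unlike number ranged from -0.34 to 0.31. Deviations within groups of 3 tumors cannot exclude a pairing. With the replicate block 0 of the 38 were called and the medians were 0.08, -0.0027, -0.38, -0.43, -0.47 and -0.52 in the order of the report. The share of all genes called by that fit and its medians over all genes are not given here. Some signs turned, and the cause was not tested. The median of PD against Con was -0.082 without TMM, -0.0027 with the replicate block and -0.0094 with the compared groups alone. In Comb against Con, Fbl was -0.15 without TMM, -0.0013 without a filter and -0.15 with the replicate block. In Comb against SFIH, Ncl was -0.10 without TMM and -0.092 with the replicate block. Without TMM the median of all genes moved by over 0.1 in the contrasts with Comb. The distance of the 38 genes from it was then -0.20, -0.25, -0.23 and -0.28 in Comb against Con, PD and SFIH and in the interaction, beside -0.24, -0.33, -0.30 and -0.35 with TMM.

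Leaving out each tumor in turn, the median ranged from -0.029 (without SFIH replicate 3) to 0.12 in SFIH against Con, from -0.056 to 0.10 in PD against Con, from -0.59 to 0.054 in Comb against Con, from -0.61 to 0.10 in Comb against PD, from -0.65 to 0.022 in Comb against SFIH and from -0.66 to 0.010 in the interaction. In the last 4 the highest value was without Comb replicate 3 and the lowest without Comb replicate 1. The number called by edgeR ranged from 0 to 1 in Comb against Con and in Comb against PD (Rrs1, -1.40 to -0.41 in the latter), and was 0 elsewhere. Without Comb replicate 1, edgeR called 3943, 2100 and 3117 genes in all in Comb against Con, PD and SFIH, against 0 with all tumors. In SFIH against Con, Myc ranged from -0.25 to 0.61, Ncl from -0.095 to 0.32 and Npm1 from -0.16 to 0.11. In PD against Con, Myc ranged from -0.69 to 0.24. In Comb against Con, Myc ranged from -0.87 to 0.038, Ncl from -0.19 to 0.72, Npm1 from -0.37 to 0.30 and Fbl from -0.61 to 0.49. In Comb against PD, Myc ranged from -0.60 to 0.24, Ncl from -0.66 to 0.26, Npm1 from -0.56 to 0.11 and Fbl from -1.001 to 0.081. In Comb against SFIH, Ncl ranged from -0.35 to 0.56, Npm1 from -0.39 to 0.29 and Fbl from -1.08 to 0.0054. In the interaction, Myc ranged from -0.81 to 0.12, Ncl from -0.82 to 0.093 and Npm1 from -0.58 to 0.10. Of the named genes' other values, all kept their sign.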
